A study of Mus musculus with 9 samples.

Results

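The genes described here are 10 regulators and effectors of fatty acid use in mouse heart muscle, and they were chosen by symbol. They are the nuclear receptors Ppara, Ppard, Esrra and Esrrg, the coactivators Ppargc1a and Ppargc1b, the uncoupling proteins Ucp3 and Ucp2, and the pyruvate dehydrogenase kinases Pdk4 and Pdk2. All 10 were found by Ensembl identifier among the 38293 genes of the count table, and all 10 passed the filter on low counts, which left 14124 tested genes. RNA was sequenced from the left ventricle of 9 male C57BL/6 mice aged 8 weeks. In 6 mice the left anterior descending coronary artery was tied for 1 hour and then released, which is ischemia-reperfusion (I/R). Their tissue was collected 14 days later in 3 mice and 1 day (24 hr) later in the other 3 mice. The remaining 3 mice had a sham operation, and the labels do not give the time after surgery at which their tissue was taken. The labels name the infarcted region as the tissue in all 9 mice, sham included, and name no transgene or drug. The 1-day mice are numbers 4, 5 and 6 and the sham mice 1, 2 and 3. The 3 count columns of the 14-day group all carry the name of mouse 7, although the labels list 3 mice, so the letters A, B and C stand for them without an order. Their counts differed by far more than sampling noise (chi-square per degree of freedom 19.7 to 29.6), so they are not copies of 1 column. That difference cannot show that they come from 3 mice. Each was used as 1 replicate because the labels list 3 mice.

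PPARα, PPARδ and the estrogen-related receptors ERRα and ERRγ are nuclear receptors that switch on genes of fatty acid oxidation and mitochondrial respiration in the heart. They need coactivators, and PGC-1α and PGC-1β, encoded by Ppargc1a and Ppargc1b, are the best known of these. UCP3 and UCP2 are carriers of the inner mitochondrial membrane, and PDK4 and PDK2 are kinases that switch off pyruvate dehydrogenase and so limit the oxidation of glucose; Ucp3 and Pdk4 are known targets of PPARs in muscle.

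The libraries held between 20215781 and 36816818 counts, of which 5706225 to 14501223 were left after removing ribosomal RNA and mitochondrially encoded genes. On the first principal component (64.4% of the variance), mouse 6 lay at 37.2, apart from mice 4 and 5 at 78.0 and 78.7 and nearer to the other groups, so results that rest on it are also given without it. All 16 cardiomyocyte markers were detected in all groups. Levels below are in CPM, counts scaled to a common library total, and a gene is called where the adjusted p from edgeR is below 0.05. A log2 fold has the group named first on top. Libraries were scaled by trimmed means (TMM), which left the median log2 fold of all genes at 0.04 at 1 day against sham, 0.01 at 14 days against sham and 0.00 at 14 days against 1 day. Scaling by total counts alone raised the first of these by 0.48 and lowered the last by 0.39, while the folds of the 10 genes relative to that median moved by at most 0.04 at 1 day against sham.

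At 1 day, 8 of the 10 genes were lower than in sham hearts and 1, Ucp2, was higher. Among all tested genes 54.2% were called in this comparison, 29.4% higher and 24.8% lower. The median log2 fold of the 10 genes was -1.07. At 14 days 2 of the 10, Ppard and Esrra, were lower than in sham and none was higher, where 14.4% of all genes were called, 5.64% lower and 8.75% higher. The median of the 10 was then -0.38. Between the time points, 6 genes were higher at 14 days than at 1 day and 2 were lower, against 25.1% and 26.8% of all genes, with a median of 0.75. Without mouse 6 the counts were 8 lower and 1 higher at 1 day against sham (median -1.39), 4 lower at 14 days against sham (-0.38) and 6 higher and 2 lower at 14 days against 1 day (1.08). Of 14649 genes then tested, 3873 were lower and 4638 higher at 1 day against sham. At 14 days 1469 were lower and 1752 higher than in sham, and 4049 higher and 4311 lower than at 1 day. Mouse 6 bears on 14 days against sham only through the fit shared by all 9 libraries, from which each gene's spread was estimated. Leaving out mouse 6 gave more calls there than any other setting (3221 against 2033 genes). The comparisons with sham share the sham libraries, and both time points share their own libraries with the third comparison, so the 3 sets of values are not independent. Scaled by total counts alone, 6 of the 10 were lower and 2 higher at 1 day, where 1057 and 6860 of 14124 genes were. In that comparison 54.3% of the genes called with TMM were higher against 86.6% with total counts. The same split was 60.8% against 86.5% at 14 days over sham and 48.4% against 16.3% at 14 days over 1 day.

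**Figure D1:**
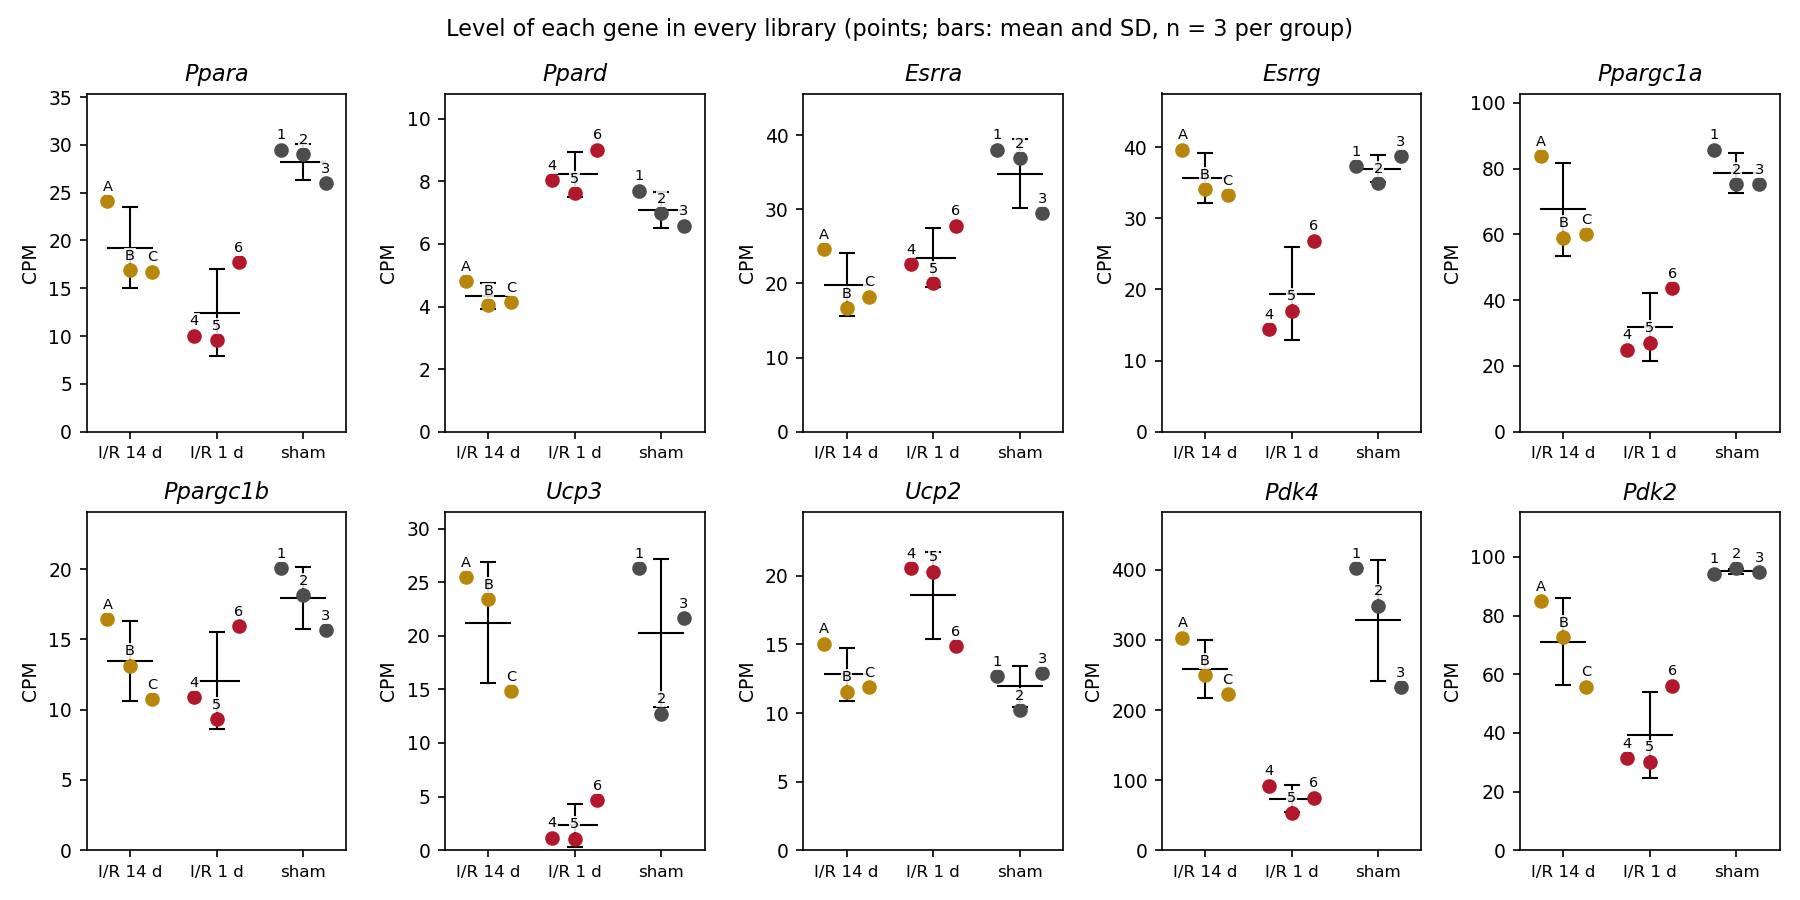
CPM of the 10 genes in every library, on axes from 0, with points for the mice at 14 days (A, B, C) and 1 day (4, 5, 6) after I/R and the sham mice (1, 2, 3), and bars for mean and SD (n = 3). Ucp3 lies between 1.07 and 4.66 CPM in the 1-day libraries and above 12 CPM in all others; Ppard is below 5 CPM in the 14-day libraries alone.

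Ppara (ENSMUSG00000022383, chr15:85734983-85802819, + strand, GRCm38) encodes PPARα, the receptor that drives fatty acid oxidation in cardiomyocytes. Its level was 24.1, 16.9 and 16.7 CPM in the 14-day libraries A, B and C, 10.05, 9.57 and 17.7 CPM in the 1-day mice 4, 5 and 6, and 29.5, 29.0 and 26.01 CPM in sham mice 1, 2 and 3. Every sham library was above every I/R library, and mouse 6 lay above libraries B and C. Ppara fell at 1 day against sham (log2 fold -1.19, SE 0.23, adjusted p = 0.00167). At 14 days its log2 fold was -0.55 against sham (SE 0.22, adjusted p = 0.127), which became a call without mouse 6, without library A or with the 1-day group kept out of the fit. Mouse 6 and the 1-day group are not in that comparison and bear on it only through the shared fit. At 14 days Ppara was higher than at 1 day by 0.64 on the log2 scale (SE 0.23, adjusted p = 0.0366), a call that ended in 10 of 19 alternative settings, 6 of which left out sham 1, sham 2, sham 3, mouse 4, mouse 5 or library A.

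Ppard (ENSMUSG00000002250, chr17:28232700-28301474, + strand) encodes PPARδ, which is found in many cell types and acts on some of the same fatty acid genes in heart. It had 4.81, 4.05 and 4.13 CPM in libraries A, B and C at 14 days, 8.03, 7.62 and 9.01 CPM in mice 4, 5 and 6 at 1 day, and 7.70, 6.98 and 6.58 CPM in sham mice 1, 2 and 3. The 14-day libraries lay below all 6 others, while the 1-day and sham libraries overlapped. Ppard fell at 14 days both against sham (log2 fold -0.71, SE 0.12, adjusted p = 0.00585) and against 1 day (-0.92, SE 0.12, adjusted p = 1.54e-04). At 1 day its log2 fold against sham was 0.21 (SE 0.12, adjusted p = 0.162), so it was the one receptor here not called lower at that time. Scaled by total counts alone, that value was 0.68 and was called, and the 14-day call against sham was lost.

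Esrra (ENSMUSG00000024955, chr19:6910977-6921813, - strand) encodes ERRα, an orphan receptor that controls respiratory chain genes together with the PGC-1 coactivators. Its level was 24.6, 16.7 and 18.2 CPM in libraries A, B and C at 14 days, 22.6, 20.02 and 27.8 CPM in mice 4, 5 and 6 at 1 day, and 38.0, 36.9 and 29.5 CPM in sham mice 1, 2 and 3. All I/R libraries were below all sham libraries, and the I/R groups overlapped. Esrra fell at 1 day (log2 fold -0.57, SE 0.16, adjusted p = 0.0126) and at 14 days against sham (-0.81, SE 0.17, adjusted p = 0.0113). The 1-day call was lost without mouse 5 (adjusted p = 0.0536) and with total counts alone, and the 14-day call was lost without sham 2, library B or library C (highest adjusted p = 0.0584). At 14 days against 1 day the log2 fold was -0.24 (SE 0.17, adjusted p = 0.241), and it was called without library A. Esrra shares 164 exonic bases (3.74% of its exons) with Trmt112 on the opposite strand and Mir6990, and the strand setting of the counting is not given in the sources used here.

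Esrrg (ENSMUSG00000026610, chr1:187608791-188214885, + strand) encodes ERRγ, which is enriched in oxidative muscle. It had 39.6, 34.1 and 33.2 CPM in libraries A, B and C at 14 days, 14.4, 17.0 and 26.8 CPM in mice 4, 5 and 6 at 1 day, and 37.3, 34.9 and 38.7 CPM in sham mice 1, 2 and 3. The 1-day libraries lay below all others, and the 14-day libraries overlapped sham. Esrrg fell at 1 day against sham (log2 fold -0.94, SE 0.19, adjusted p = 0.00219) and was higher at 14 days than at 1 day (0.89, SE 0.19, adjusted p = 0.00327). Against sham at 14 days the log2 fold was -0.05 (SE 0.19, adjusted p = 0.879), with a sign that turned under total counts alone (0.04).

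Ppargc1a (ENSMUSG00000029167, chr5:51454250-51567726, - strand) encodes PGC-1α, the inducible coactivator of mitochondrial genes. Its level was 83.7, 59.0 and 60.02 CPM in libraries A, B and C at 14 days, 24.9, 27.1 and 43.6 CPM in mice 4, 5 and 6 at 1 day, and 85.7, 75.3 and 75.2 CPM in sham mice 1, 2 and 3. All 1-day libraries lay below all others, and the 14-day range reached into the sham range through library A alone. Ppargc1a fell at 1 day against sham (log2 fold -1.31, SE 0.21, adjusted p = 5.97e-04) and was higher at 14 days than at 1 day (1.09, SE 0.21, adjusted p = 0.00176). At 14 days its log2 fold against sham was -0.22 (SE 0.21, adjusted p = 0.505). Both calls held in all 19 alternatives.

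Ppargc1b (ENSMUSG00000033871, chromosome 18) encodes PGC-1β, which shares many partners with PGC-1α. It had 16.4, 13.1 and 10.8 CPM in libraries A, B and C at 14 days, 10.9, 9.33 and 15.95 CPM in mice 4, 5 and 6 at 1 day, and 20.1, 18.2 and 15.7 CPM in sham mice 1, 2 and 3. The groups overlapped in every pair, mouse 6 lying above sham 3. The log2 fold at 1 day against sham was -0.59 (SE 0.20, adjusted p = 0.0313), and this call was lost in 7 of 19 alternatives, 4 of them without sham 1, sham 2, mouse 4 or mouse 5. Its values were -0.42 at 14 days against sham (SE 0.20, adjusted p = 0.191) and 0.17 at 14 days against 1 day (SE 0.20, adjusted p = 0.513). In the test for any difference among the 3 groups it was the 1 gene of the 10 that was not called (adjusted p = 0.0587), where 63.0% of all genes were.

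**Figure D2:**
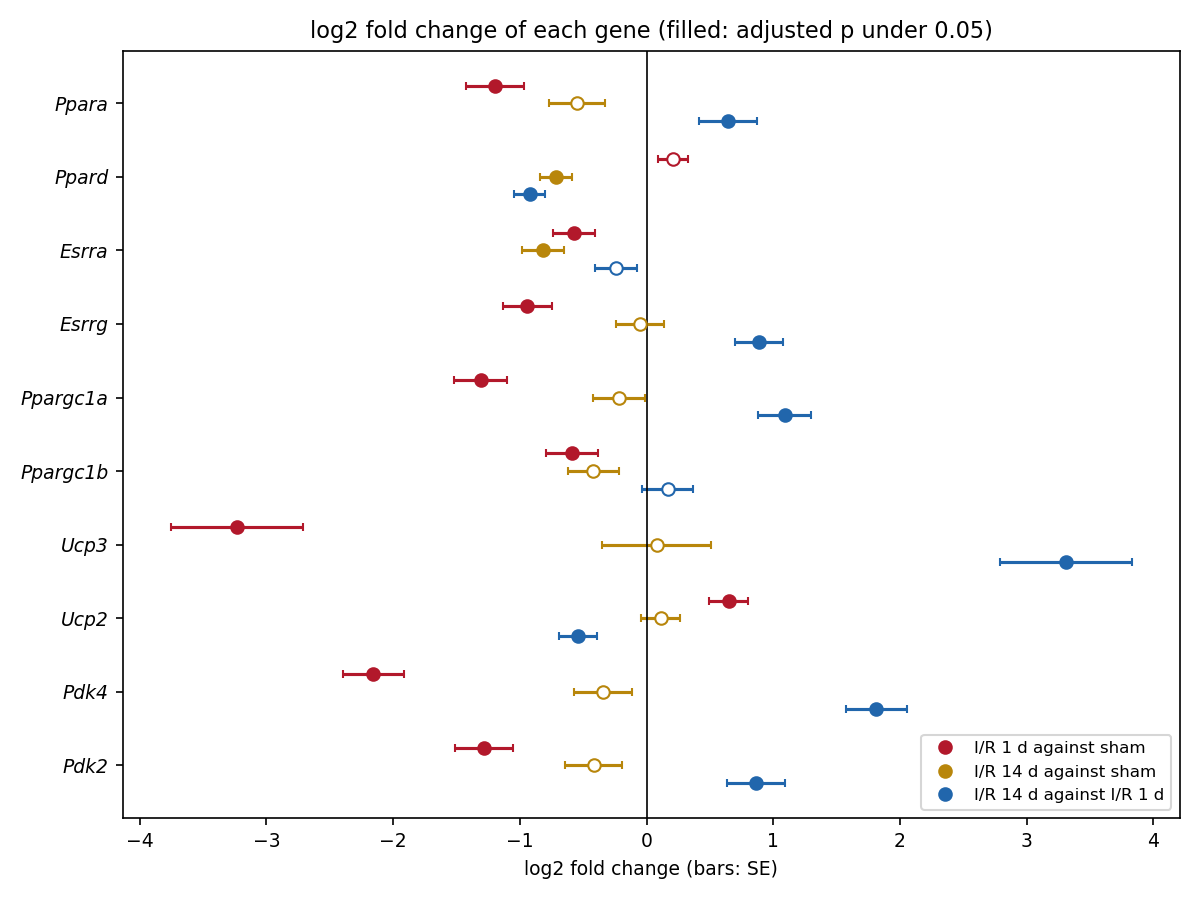
log2 fold of each of the 10 genes with its SE in the 3 comparisons, filled where the adjusted p is below 0.05. Ucp3 stands farthest from 0, at -3.23 at 1 day against sham and 3.31 at 14 days against 1 day; Ppard and Esrra alone have filled points for 14 days against sham.

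Bases before the annotated start are shown for Ucp3, Pdk4 and Ppargc1a, which had the largest falls at 1 day, and for Ucp2, the gene that rose beside Ucp3 on the chromosome. Windows of 250 bases were taken from RefSeq (GRCm38.p6), which held 9 of the 10 genes in 13 windows, and bases that overlap an annotated exon were left out. Capitals mark matches to the motifs searched on both strands: AGGTCA, the core that nuclear receptors bind, AAGGTCA for ERRs, the direct repeat of AGGTCA with a single base between for PPARs, TGACGTCA and its core TGACGT for cAMP response elements, TATAAA for the TATA box and GGGCGG for the GC box. The longer forms contain the shorter ones.
Ucp3: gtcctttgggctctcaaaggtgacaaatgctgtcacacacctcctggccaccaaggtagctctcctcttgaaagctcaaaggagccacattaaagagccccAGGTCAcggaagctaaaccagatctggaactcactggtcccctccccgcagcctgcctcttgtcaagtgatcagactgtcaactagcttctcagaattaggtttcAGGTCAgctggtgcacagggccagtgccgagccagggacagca
Ucp2: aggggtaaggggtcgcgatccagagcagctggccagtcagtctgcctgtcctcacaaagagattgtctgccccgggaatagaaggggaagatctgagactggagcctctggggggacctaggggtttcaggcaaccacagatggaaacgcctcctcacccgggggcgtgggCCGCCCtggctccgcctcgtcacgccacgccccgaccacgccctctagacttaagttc
Pdk4: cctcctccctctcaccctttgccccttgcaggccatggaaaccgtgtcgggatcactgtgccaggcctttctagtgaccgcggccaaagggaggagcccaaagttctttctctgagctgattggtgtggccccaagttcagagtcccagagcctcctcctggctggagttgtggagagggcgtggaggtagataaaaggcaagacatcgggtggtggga
Ppargc1a: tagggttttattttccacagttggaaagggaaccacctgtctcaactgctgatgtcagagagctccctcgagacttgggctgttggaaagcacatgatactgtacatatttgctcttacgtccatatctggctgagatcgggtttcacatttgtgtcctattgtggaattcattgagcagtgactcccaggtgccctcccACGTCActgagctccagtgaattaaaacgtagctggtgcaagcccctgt
These are chr7:100472741-100472989 on the + strand for Ucp3, chr7:100493108-100493336 on the + strand for Ucp2, chr6:5496310-5496528 on the - strand for Pdk4 and chr5:51567727-51567975 on the - strand for Ppargc1a. The Ucp3 window held AGGTCA at 149 and 44 bases before the start, and it was the only window of these genes that held it; 14.0% of 32851 RefSeq windows of that length did. The Ppargc1a window held TGACGT on the reverse strand 50 bases before the start, as did 6.47% of windows. The Ucp2 window held 1 GC box on the reverse strand, found in 32.7% of windows, and the Pdk4 window held none of the letters searched. AAGGTCA (4.08% of windows), the repeat (0.0335%) and TGACGTCA (1.55%) were in no window of the 9 genes. GC boxes were also in windows of Ppara, Ppard, Esrra and Esrrg, and TATAAA (12.4% of windows) was in 1 Esrrg window. A match describes the letters of the window and is not a bound site.

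Ucp3 (ENSMUSG00000032942, chr7:100472990-100486432, + strand) encodes the uncoupling protein of muscle, whose RNA follows fatty acid supply. It had 25.4, 23.4 and 14.8 CPM in libraries A, B and C at 14 days, 1.18, 1.07 and 4.66 CPM in mice 4, 5 and 6 at 1 day, and 26.3, 12.7 and 21.7 CPM in sham mice 1, 2 and 3. The 1-day values rest on 52, 27 and 104 counts, and all lay below every other library. Ucp3 fell at 1 day against sham (log2 fold -3.23, SE 0.52, adjusted p = 9.51e-04), a mean of 2.303 ± 2.04 CPM at 1 day against 20.2 ± 6.89 CPM in sham (SD, n = 3 each). Of the 10 genes it had the largest fold in this comparison. At 14 days Ucp3 was higher than at 1 day by 3.31 on the log2 scale (SE 0.52, adjusted p = 8.95e-04). Its log2 fold against sham at 14 days was 0.08 (SE 0.43, adjusted p = 0.926), in which sham 2 was the lowest and library C the next lowest of the 6 libraries; without sham 2 the value was -0.18 and without library A it was -0.07. Without mouse 6 the log2 fold was -4.15 at 1 day against sham and 4.23 at 14 days against 1 day.

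Ucp2 (ENSMUSG00000033685, chr7:100493337-100502020, + strand) starts 6904 bases after the end of Ucp3 and encodes a carrier that is abundant in immune cells and present in many tissues. Its level was 15.1, 11.5 and 11.9 CPM in libraries A, B and C at 14 days, 20.5, 20.3 and 14.9 CPM in mice 4, 5 and 6 at 1 day, and 12.7, 10.2 and 12.9 CPM in sham mice 1, 2 and 3. Every 1-day library was above every sham library, and library A was level with mouse 6. Ucp2 rose at 1 day against sham (log2 fold 0.65, SE 0.15, adjusted p = 0.00394). At 14 days it was lower than at 1 day (log2 fold -0.54, SE 0.15, adjusted p = 0.0108), which was lost without mouse 4 or without library B (adjusted p = 0.0531 in both), and its log2 fold against sham was 0.11 (SE 0.15, adjusted p = 0.669). Beside this, 11 of 13 tested leukocyte markers rose at 1 day against sham, where 29.4% of all genes did. Their summed level was 190 to 368 CPM at 14 days, 268 to 339 CPM at 1 day and 127 to 140 CPM in sham. Cd3e and Cd79a were too low to test. Lyz2 alone had means of 155, 110 and 60.7 CPM at 14 days, at 1 day and in sham. The mean sums were 285, 310 and 135 CPM. Ucp2 had 79.4, 38.8 and 32.4 counts per 1000 leukocyte marker counts in libraries A, B and C, 63.5, 59.8 and 55.5 in mice 4, 5 and 6, and 90.9, 80.2 and 92.6 in sham mice 1, 2 and 3. Relative to these markers Ucp2 was above all I/R libraries in sham; the part of leukocytes in its change was not tested. Ucp2 shares 305 exonic bases (4.36%) with Dnajb13 on the opposite strand.

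Pdk4 (ENSMUSG00000019577, chr6:5483351-5496309, - strand) encodes the kinase that is induced by fasting and fatty acids. It had 304, 249 and 223 CPM in libraries A, B and C at 14 days, 92.1, 53.5 and 74.6 CPM in mice 4, 5 and 6 at 1 day, and 402, 349 and 233 CPM in sham mice 1, 2 and 3. All 1-day libraries were below all others, and here mouse 6 lay between mice 4 and 5. Pdk4 fell at 1 day against sham (log2 fold -2.16, SE 0.24, adjusted p = 7.66e-05) and was higher at 14 days than at 1 day (1.81, SE 0.24, adjusted p = 1.81e-04). At 14 days its log2 fold against sham was -0.34 (SE 0.23, adjusted p = 0.347).

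Pdk2 (ENSMUSG00000038967, chr11:95026258-95041354, - strand) encodes the kinase found in most tissues. Its level was 85.0, 72.7 and 55.7 CPM in libraries A, B and C at 14 days, 31.3, 30.1 and 56.1 CPM in mice 4, 5 and 6 at 1 day, and 94.3, 96.1 and 94.9 CPM in sham mice 1, 2 and 3. Sham libraries were nearly equal and above all I/R libraries, and mouse 6 was level with library C. Pdk2 fell at 1 day against sham (log2 fold -1.28, SE 0.23, adjusted p = 0.00115) and was higher at 14 days than at 1 day (0.87, SE 0.23, adjusted p = 0.0100). Its log2 fold against sham at 14 days was -0.42 (SE 0.23, adjusted p = 0.245), which became a call without mouse 6 or with the 1-day group kept out of the fit.

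The groups did not overlap in CPM for 8 of the 10 genes at 1 day against sham, where 63.2% of all genes did not, for 4 at 14 days against sham (39.4% of all genes) and for 5 at 14 days against 1 day (56.3%). Of 30 gene results, 19 were called, and 11 of these kept their direction and call in all 19 alternatives. Those 11 were Ppara, Ppargc1a, Ucp3, Ucp2, Pdk4 and Pdk2 at 1 day against sham and Ppard, Ppargc1a, Ucp3, Pdk4 and Pdk2 at 14 days against 1 day.

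Levels were compared between genes per kilobase of the principal transcript (CPM per kb). In sham hearts the order was Pdk4 94.1, Pdk2 42.3, Esrra 15.5, Ppargc1a 12.2, Ucp3 8.26, Ppara 8.25, Esrrg 6.99, Ppargc1b 4.91, Ucp2 2.99 and Ppard 2.16 CPM per kb. Neighbours in this order whose sham libraries overlapped were Esrra with Ppargc1a and Ucp3 with Ppara. At 1 day Pdk4 (21.1 CPM per kb) overlapped Pdk2 (17.4), Ucp2 (4.66) stood next after Ppargc1a (4.93) and overlapped it, and Ucp3 (0.941) was last, below Ppard (2.51) without overlap. At 14 days Ucp3 stood again at 8.67 CPM per kb, overlapping its neighbours Esrra (8.84) and Esrrg (6.73), and Ppard was last at 1.32. With the length of all annotated exons in place of the principal transcript, Esrra stood below Ppargc1a in sham (7.93 against 11.9 CPM per kb) and Ucp3 overlapped Ppard at 1 day.

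Ratios of 2 genes within a library do not depend on scaling between libraries. Ucp2 counts per Ucp3 count were 0.592, 0.494 and 0.802 in libraries A, B and C at 14 days, 17.5, 18.9 and 3.19 in mice 4, 5 and 6 at 1 day, and 0.482, 0.802 and 0.596 in sham mice 1, 2 and 3. Ucp2 outnumbered Ucp3 in the 1-day mice and in no other library. The difference at 1 day against sham was 4.04 on the log2 scale, and at 14 days against 1 day it was -4.03 (exact two-sided permutation p = 0.1 each, adjusted p = 0.167 over 15 tests). Without mouse 6 these differences were 4.87 and -4.86. With 3 against 3 libraries 0.1 is the smallest p that test can give, so none of these ratios can pass 0.05.

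Counts of Ppard per count of Ppara were 0.200, 0.239 and 0.247 in libraries A, B and C, 0.800, 0.797 and 0.509 in mice 4, 5 and 6, and 0.261, 0.240 and 0.253 in sham mice 1, 2 and 3. The 1-day libraries did not overlap either other group, with differences of 1.45 against sham and -1.59 at 14 days against 1 day (exact permutation p = 0.1 each). Ppargc1b per Ppargc1a did not overlap either, with differences of 0.74 at 1 day against sham and -0.94 at 14 days against 1 day (exact permutation p = 0.1 each). Esrrg per Esrra was 1.61, 2.04 and 1.82 in libraries A, B and C, 0.636, 0.849 and 0.966 in mice 4, 5 and 6, and 0.981, 0.948 and 1.31 in sham mice 1, 2 and 3. The 14-day libraries were the highest, by 0.76 over sham and 1.17 over 1 day (exact permutation p = 0.1 each). Pdk4 per Pdk2 was lower at 1 day than in sham by -0.82 with overlapping libraries (exact permutation p = 0.2), and higher at 14 days than at 1 day by 0.94 without overlap (p = 0.1, exact).

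**Figure D3:**
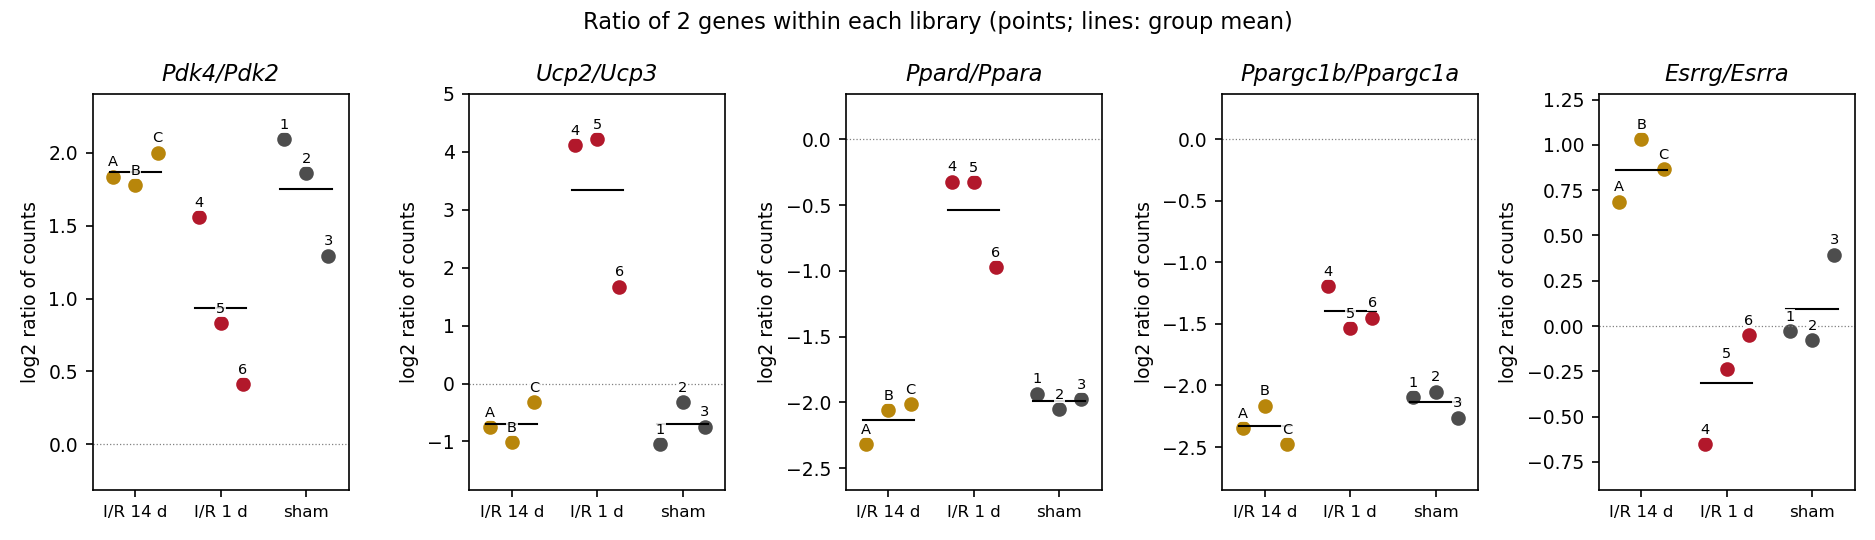
log2 ratio of counts of 2 genes within each library (points, 0.5 added to each count), with lines at group means, for mice at 14 days (A, B, C) and 1 day (4, 5, 6) after I/R and sham mice (1, 2, 3). The Ucp2/Ucp3 panel has group means of -0.70 at 14 days, 3.33 at 1 day and -0.70 in sham, and the 14-day points are the highest in the Esrrg/Esrra panel.

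In bulk tissue, fewer cells of a type and less RNA per cell cannot be told apart. Of 16 cardiomyocyte markers, 13 fell at 1 day against sham, none was called at 14 days against sham, and 8 were higher at 14 days than at 1 day. Of all genes 24.8% fell, 14.4% were called and 25.1% were higher in these comparisons. The median log2 folds of the 16 markers were -1.05, -0.25 and 0.50, beside -1.07, -0.38 and 0.75 for the 10 genes. The summed level of the markers was 59304 to 77203 CPM at 14 days, 39731 to 60982 CPM at 1 day and 77327 to 84768 CPM in sham, with none of the 16 at 0. Fibroblast markers summed to 2010 to 4972 CPM at 14 days, 783 to 1094 CPM at 1 day and 544 to 990 CPM in sham. Of these markers 7 of 8 were higher at 14 days than in sham, where 8.75% of all genes were. Endothelial markers summed to 429 to 511, 373 to 401 and 495 to 530 CPM in the same order of groups, and 4 of 8 fell at 1 day. Adipocyte markers stayed at or below 8.12 CPM in sum, with Lep and Ucp1 at 0 in all libraries. Skeletal muscle markers summed to 570 to 649 CPM at 14 days, 479 to 668 CPM at 1 day and 708 to 834 CPM in sham. Of the 3 skeletal muscle markers tested, Acta1 (log2 fold 1.14, SE 0.21, adjusted p = 0.00102) and Tnnt3 (3.62, SE 0.69, adjusted p = 0.00121) rose at 1 day against sham and Ckm, which heart muscle also expresses, fell (-1.21, SE 0.18, adjusted p = 2.76e-04). Acta1 already had a mean of 131 CPM in sham, while Tnnt3 was near 0, with means of 1.16 CPM at 1 day and 0.110 CPM in sham. Myh1, Myh2, Myh4, Tnni2 and Mylpf were too low to test. Red blood cell markers summed to 99.3 to 120 CPM at 14 days, 51.7 to 73.4 CPM at 1 day and 93.4 to 154 CPM in sham, and all 5 fell at 1 day against sham. The part of cell content in the values of the 10 genes was not tested beyond the following ratio.

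Per 1000 counts of the cardiomyocyte markers, Ucp3 had 0.250 to 0.356 counts at 14 days, 0.0270 to 0.0764 at 1 day and 0.150 to 0.319 in sham, so the 1-day libraries again lay below all others. The 1-day libraries were also below all sham libraries in Pdk4 (1.22 to 2.16 against 3.01 to 4.88), Pdk2 (0.733 to 0.921 against 1.13 to 1.23), Ppargc1a (0.583 to 0.716 against 0.888 to 1.04) and Ppara (0.235 to 0.290 against 0.336 to 0.357). For Esrrg (0.337 to 0.440 against 0.412 to 0.501) and Esrra (0.456 to 0.530 against 0.381 to 0.461) the 1-day and sham ranges overlapped. Ppard and Ucp2 were higher per cardiomyocyte marker count in each 1-day library than in each sham library, at 0.148 to 0.192 against 0.0823 to 0.0934 and at 0.244 to 0.511 against 0.1205 to 0.167. At 14 days Ppard (0.0616 to 0.0696) and Esrra (0.254 to 0.319) were below all sham libraries on this scale as well, and so were Ppara (0.258 to 0.312 against 0.336 to 0.357) and Pdk2 (0.940 to 1.11 against 1.13 to 1.23). Esrrg (0.513 to 0.560 against 0.412 to 0.501) and Ucp2 (0.176 to 0.201 against 0.1205 to 0.167) were above all sham libraries at 14 days. Ppargc1b had 0.181 to 0.213 at 14 days, 0.235 to 0.262 at 1 day and 0.202 to 0.243 in sham, and both I/R groups overlapped sham. Ucp3, Pdk4 and Ppargc1a at 14 days overlapped sham too. In the edgeR test with this scaling, which was chosen after seeing the data and moved the median of all genes by 0.82 at 1 day against sham, Ucp3, Pdk4, Pdk2, Ppargc1a and Ppara were still called lower at 1 day, Esrrg, Esrra and Ppargc1b were not, and at 14 days neither Ppard nor Esrra was called against sham. At 1 day 579 of 14124 genes were then lower and 9564 higher. Of the 16 markers themselves 8 were lower and 5 higher, with a median log2 fold of -0.29, beside -0.31 for the 10 genes. Ttn alone had 29639.6 CPM of a mean marker sum of 47797.5 CPM at 1 day. Whether the falls went beyond those of other cardiomyocyte genes was not tested.

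**Figure D4:**
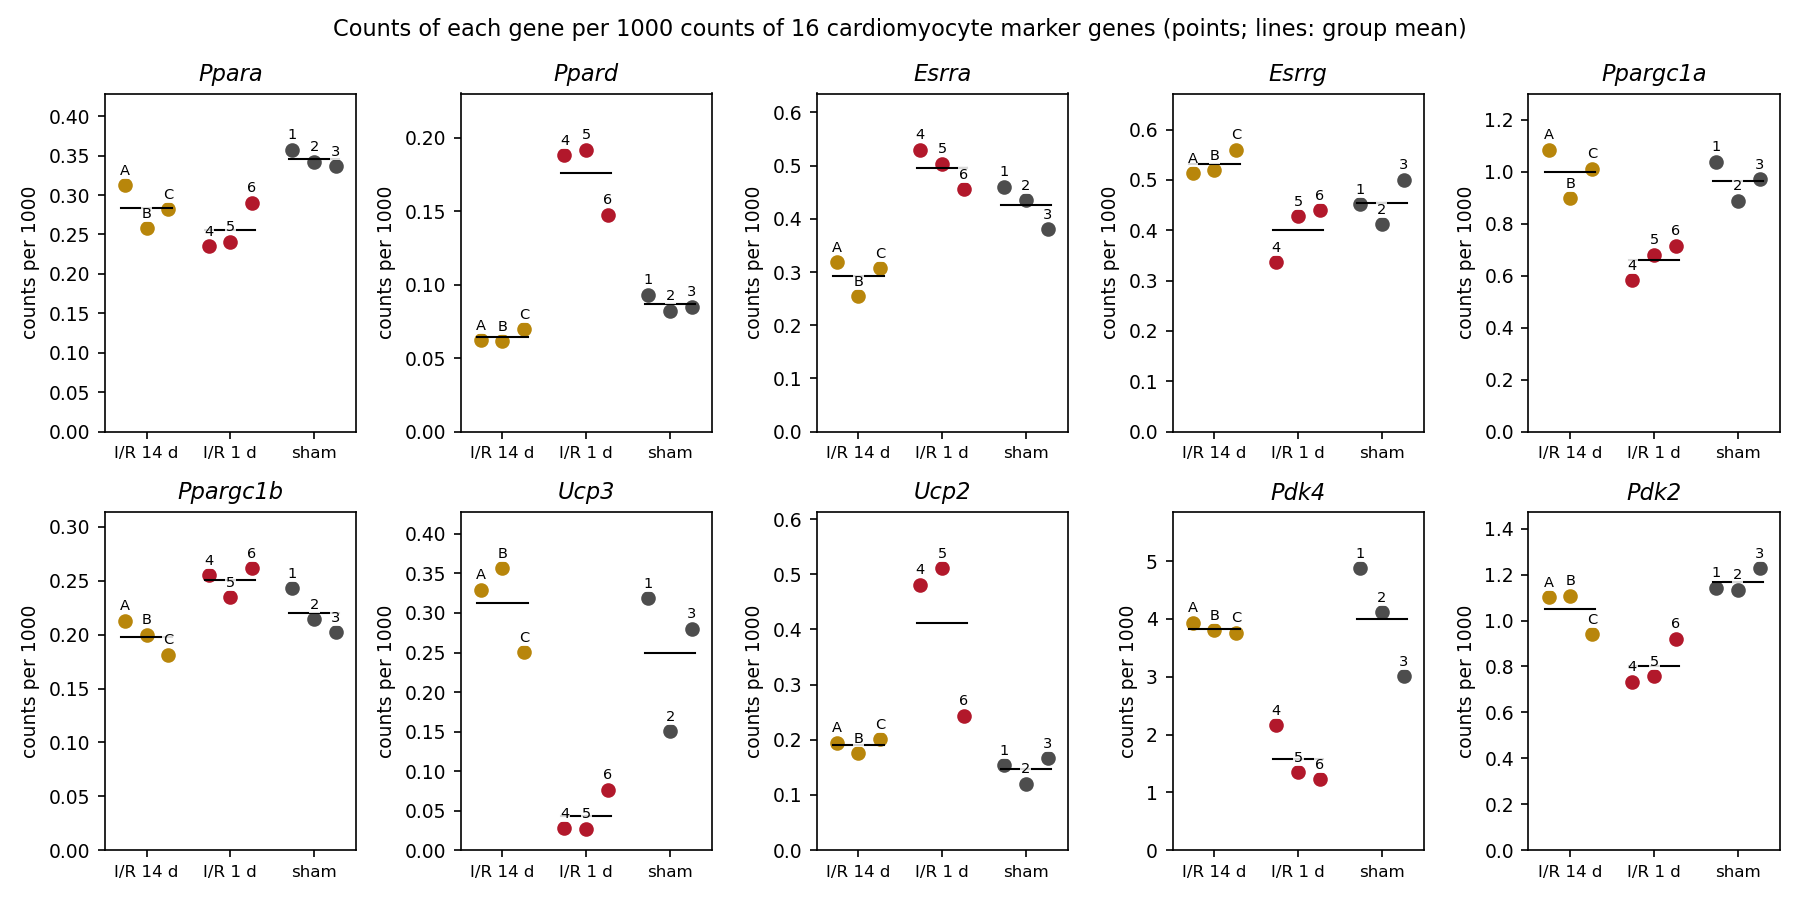
Counts of each of the 10 genes per 1000 counts of 16 cardiomyocyte marker genes in every library, on axes from 0, with lines at group means, for mice at 14 days (A, B, C) and 1 day (4, 5, 6) after I/R and sham mice (1, 2, 3). The 1-day points stay below sham for Ppara, Ppargc1a, Ucp3, Pdk4 and Pdk2 and lie above sham for Ppard and Ucp2.

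Most target genes of the receptors were lower at 1 day as well. Of 28 PPAR target genes 23 fell and 2 rose against sham at 1 day, with a median log2 fold of -1.14, where the median of all genes was 0.04 and 24.8% of all genes fell and 29.4% rose. Cd36, a fatty acid transporter (log2 fold -0.79, SE 0.17, adjusted p = 0.00267), and Hadha, of mitochondrial β-oxidation (-1.12, SE 0.21, adjusted p = 0.00101), fell, while Plin2, which coats lipid droplets, rose (0.70, SE 0.13, adjusted p = 0.00111). At 14 days the lipase gene Pnpla2 (-0.68, SE 0.16, adjusted p = 0.0203) and the thioesterase gene Acot2 (-0.69, SE 0.18, adjusted p = 0.0304) were lower than in sham, and Cpt1a, the liver form of the carnitine acyltransferase, was higher (0.47, SE 0.12, adjusted p = 0.0261). The share of the 28 that was lower (7.14%) is near that of all genes (5.64%), and their median was then -0.44. At 14 days against 1 day 21 were higher, Cd36 (0.71) and Hadha (0.72) among them, and 1, Plin2 (-0.54), was lower, with a median of 0.71. Of all genes 25.1% were higher and 26.8% lower. Without mouse 6, 17 of the 28 were lower at 14 days than in sham and 1 was higher, where 1469 and 1752 of 14649 genes were.

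All 25 ERR and PGC-1 target genes fell at 1 day against sham, with a median of -0.89 and a range from -1.75 to -0.33, where 24.8% of all genes fell. Atp5b (-0.74, SE 0.19, adjusted p = 0.00608) and Atp5a1 (-0.91, SE 0.20, adjusted p = 0.00288), subunits of ATP synthase, were the most abundant. At 14 days 2 were lower than in sham, Cox5b (-1.06, SE 0.15, adjusted p = 0.00319) and Uqcrc1 (-0.63, SE 0.19, adjusted p = 0.0420), both of the respiratory chain, a share of 8.0% where 5.64% of all genes were lower. The median was -0.37, and without mouse 6 the number lower was 12, where 1469 of 14649 genes were lower. That setting gave the most calls among all genes (3221), and leaving out sham 2 gave the fewest (478). At 14 days 15 were higher than at 1 day and none was lower (median 0.52), where 25.1% of all genes were higher and 26.8% lower. One of the 25, Cox6a2, is also among the cardiomyocyte markers.

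Scaling by total counts alone left fewer calls in both lists. At 1 day against sham, 18 PPAR targets then fell and 2 rose, and 10 of 25 ERR and PGC-1 targets fell. Of all 14124 genes 1057 were then lower and 6860 higher. At 14 days against 1 day, 7 PPAR targets were then higher and 2 lower, and 3 ERR and PGC-1 targets were higher. Of all genes 1066 were then higher and 5469 lower. Scaled to cardiomyocyte marker counts, 16 PPAR targets fell and 4 rose at 1 day (median -0.39), and 6 ERR and PGC-1 targets fell and 1 rose (median -0.12), Atp5b among those whose sign turned (0.04). Under that scaling 579 of 14124 genes were lower and 9564 higher, and 8 of the 16 markers themselves were lower (median -0.29).

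Of the 12 other genes of the pyruvate dehydrogenase complex and its regulators, 10 fell at 1 day against sham and 1, Pdk3, rose, with a median of -0.95, beside 24.8% and 29.4% of all genes. Pdha1, the catalytic subunit that PDKs phosphorylate, fell (log2 fold -0.82, SE 0.17, adjusted p = 0.00180), and so did the core acetyltransferase Dlat (-0.96, SE 0.16, adjusted p = 5.28e-04). The kinase Pdk3 thus went the other way from Pdk2 and Pdk4, at a low level, with 2.39 CPM on average at 1 day and 0.967 CPM in sham (log2 fold 1.35, SE 0.24, adjusted p = 7.99e-04). Pdk3 was also higher at 14 days than in sham (1.15, SE 0.24, adjusted p = 0.0120), a call lost without sham 2. The pyruvate carriers Mpc1 and Mpc2 were lower at 14 days than in sham (-0.61, SE 0.15, adjusted p = 0.0211 and -0.51, SE 0.12, adjusted p = 0.0185). The median of the 12 at 14 days against sham was -0.27, and 6 were lower without mouse 6, where 1469 of 14649 genes were. That setting gave the most calls among all genes, and leaving out sham 2 gave the fewest. At 14 days against 1 day 10 of the 12 were higher, with a median of 0.56, where 25.1% of all genes were higher. With total counts alone 2 of the 12 were higher, where 1066 of 14124 genes were. Under that scaling 7 of the 12 fell and 1 rose at 1 day against sham, where 1057 and 6860 of 14124 genes did.

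Of 32 partners and coregulators of the receptors, 16 fell and 5 rose at 1 day against sham, with a median of -0.37 that turned to 0.11 under total counts alone (5 lower, 10 higher) and to 0.45 when scaled to cardiomyocyte markers. The 21 called are 65.6% of the list, where 54.2% of all genes were called. With total counts alone 1057 of 14124 genes were lower and 6860 higher. Prkaa2, a catalytic subunit of AMPK (-0.62, SE 0.14, adjusted p = 0.00276), and the transcription factor Mef2a (-0.89, SE 0.16, adjusted p = 8.70e-04) fell. Nr2f2, a receptor of the COUP family, was the 1 partner higher at 14 days than in sham (0.67, SE 0.16, adjusted p = 0.0179). The median was then -0.12, and 5 partners were lower without mouse 6, where 1469 of 14649 genes were. At 14 days against 1 day 14 partners were higher and 3 lower, with a median of 0.24 that turned to -0.14 under total counts alone. Of all genes 25.1% were higher and 26.8% lower.

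Of the other uncoupling and adenine nucleotide carriers, Ucp1 was at 0 in all 9 libraries and 5 were tested. Slc25a4, the main ADP/ATP carrier of heart and also an ERR and PGC-1 target (-0.89, SE 0.21, adjusted p = 0.00392), and Slc25a27, called UCP4 (-0.72, SE 0.20, adjusted p = 0.00967), fell at 1 day against sham. Slc25a30 rose (0.54, SE 0.15, adjusted p = 0.00895), a call lost without mouse 4. The median of the 5 was -0.06, and with total counts alone it was 0.43, with 2 higher and none lower. At 14 days none was called against sham and Slc25a27 was higher than at 1 day (0.81, SE 0.19, adjusted p = 0.00446). Of all genes 14.4% were called and 25.1% were higher in these comparisons.

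Several list genes named for 14 days against sham lost their call when 1 library was left out. Pnpla2, Acot2, Nr2f2, Mpc1 and Mpc2 did so without any of sham 1, sham 2, sham 3, library B or library C, Uqcrc1 without those or mouse 4, Cpt1a without sham 2, sham 3, library B or library C, and Pdk3 without sham 2, while Cox5b remained called. For 14 days against 1 day, Hadha, Pdha1, Dlat, Prkaa2 and Atp5a1 were not called without mouse 4 or without mouse 5. Prkaa2 and Atp5a1 were also not called without library A or without library B, nor Atp5a1 without sham 1 or sham 2.

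**Figure D5:**
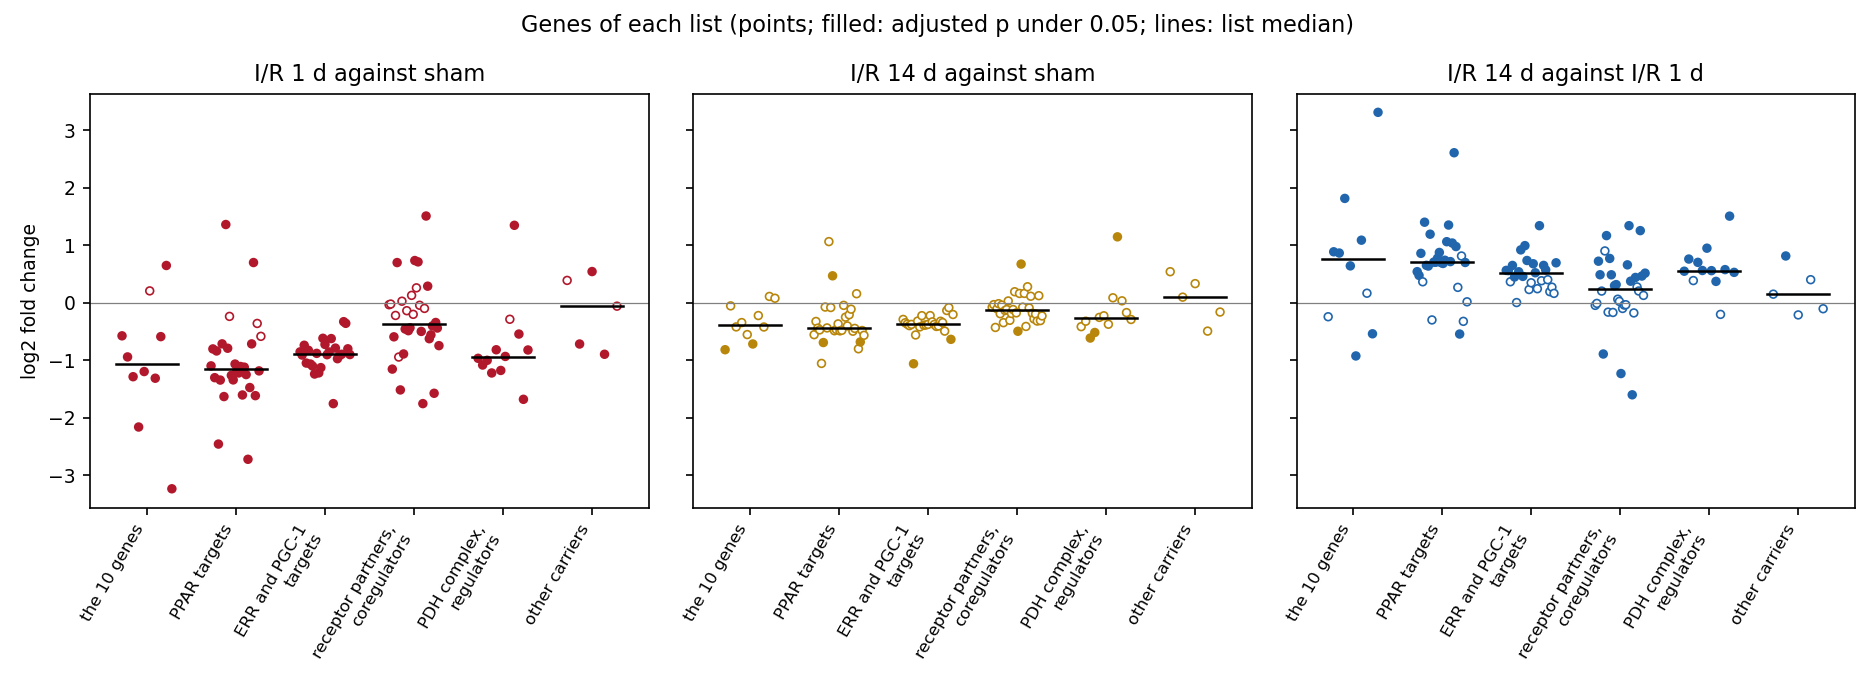
log2 folds of the 10 genes and of 5 lists of pathway genes in the 3 comparisons (points, filled where the adjusted p is below 0.05; lines at list medians). At 1 day against sham every ERR and PGC-1 target point lies below 0, and at 14 days against sham most points are open.

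The genes whose profile over the 9 libraries was closest to each of the 10 were found by the root mean square distance of log2 CPM, each centred on its own mean, among 5528 to 5529 genes with at least 10 CPM on average. For Pdk2 these were Lpl (distance 0.06), Aldh5a1 (0.06) and Cpt2 (0.07), for Ppara Tnni3 (0.08), Crat (0.09) and Crip2 (0.09), and for Ppargc1a Dusp18 (0.08), Doc2g (0.08) and Tmem38a (0.09). Esrrg was closest to Scrn3 (0.06), Cox7a2l (0.07) and Appl2 (0.08), Ppargc1b to Rbm20 (0.08), Fam160a1 (0.08) and Gpsm1 (0.09), and Esrra to Tmem201 (0.10), Dmpk (0.10) and Klhl21 (0.11). Ppard was closest to Epn3 (0.09), Kmt2b (0.10) and Caskin2 (0.10), and Ucp2 to Hjurp (0.12), Zfp367 (0.13) and Srpr (0.13). No gene came as near to Ucp3, with Armc2 (0.28), Kcnip2 (0.46) and Lrtm1 (0.47), or to Pdk4, with Irs1 (0.30), Ppfibp2 (0.34) and Fabp3 (0.36). The distance was not scaled by the spread of a gene's own profile, so it is not a measure of how singular a profile is. That spread was 1.73 for Ucp3 and 0.99 for Pdk4, and between 0.33 and 0.64 for the other 8. All profiles share the same 9 libraries and their depth, scaling and cell content.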

How the data were processed

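RNA of 9 mice was measured, 3 each at 14 days after I/R, at 1 day after I/R and after a sham operation, grouped by the labels' titles. TRIzol was used to extract the RNA, and a stranded total RNA kit with ribosomal RNA removal gave the libraries, per the labels' protocols. The submitters' processing notes name STAR 2.7.1a and GRCm38 (mm10). Raw counts per gene, whole and not normalized by the authors, were deposited. How reads were counted, on which annotation and with which strand setting, is not given in the sources used here, so genes that overlap another gene are uncertain.

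Names, positions and lengths came from GENCODE M21 of GRCm38, which held 36429 of the 38293 identifiers, and promoter windows came from RefSeq (GRCm38.p6). The quasi-likelihood test of edgeR 4.0.16 (R 4.3.3) was applied to the counts, with TMM scaling, edgeR's low-count filter and all 9 libraries in 1 fit; adjusted p is the Benjamini-Hochberg value over 14124 genes. CPM uses TMM-scaled library totals. Each SE was derived from that test, as the absolute log2 fold divided by the square root of its F statistic. Ratios of counts, with 0.5 added to each count, were compared by an exact two-sided permutation test (scipy 1.17.1). The scripts were tested on simulated data. Depth, given with the results, sets the precision of low genes such as Ucp3 at 1 day. Per the labels the replicates are separate mice, and p-values measure the spread between these libraries. The alternatives were DESeq2 1.42.0, its size factors in edgeR, limma-voom (limma 3.58.1), total-count and upper-quartile scaling, no mitochondrial or ribosomal RNA genes, 2 other filters, only the groups compared, each library left out, and scaling to cardiomyocyte marker counts.

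All 10 genes are named. From each list of other pathway genes and each comparison, 3 called genes are named by highest mean CPM, 2 from the more frequent direction and 1 from the other, and for likeness the 3 nearest genes; some genes that this rule picks are not reported here. The 10 genes and all lists, written from general knowledge, were chosen with earlier results of these data known.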

Additional observations from a re-analysis of the deposited data

How the results depend on the processing

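No paired analysis was possible because the groups are separate mice and the labels give no pairing. Genes called at 14 days against sham numbered 2033, but 832 with total counts alone, 1023 when scaled to cardiomyocyte markers, and 478 to 3221 when 1 library was left out. The lowest count was without sham 2 and the highest without mouse 6, and the other libraries that moved it by over 1.5 times were sham 1 (912), sham 3 (1025), B (722) and C (775). At 1 day against sham (7649) and at 14 days against 1 day (7335), every alternative stayed within that factor. Scaling to cardiomyocyte markers was chosen after seeing the data. It moved the median of all genes by 0.82, 0.29 and -0.53 in the 3 comparisons, and 94.3%, 96.0% and 11.8% of called genes were then higher.

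Under it, among the genes named in the text, the log2 folds that turned sign at 1 day against sham were Ppargc1b (0.19), Esrra (0.22), Atp5b (0.043), Prkaa2 (0.17), Slc25a27 (0.071) and Pparg (0.72), at 14 days against sham Ppargc1a (0.047), Esrrg (0.22) and Pprc1 (0.19), and at 14 days against 1 day Ppargc1b (-0.34), Prkaa2 (-0.071) and Pparg (-0.17). Under total counts alone the named genes that turned were Pparg (0.38 at 1 day against sham, -0.015 at 14 days against 1 day), Esrrg (0.042) and Pprc1 (0.011) at 14 days against sham, and Ppargc1b (-0.22) at 14 days against 1 day. Other genes of the lists turned as well, as the list medians given with the results show. With 1 library left out, values at 14 days against sham ran from -0.18 to 0.32 for Ucp3, from -0.020 to 0.18 for Ucp2, from -0.18 to 0.20 for the Ucp2/Ucp3 ratio and from -0.10 to 0.29 for Pdk4/Pdk2. The sign turned for Ucp3 without sham 2 (-0.18) or library A (-0.07), for Ucp2 without library A (-0.020), for Ucp2/Ucp3 without library C (-0.18), sham 1 (-0.17) or sham 3 (-0.01), and for Pdk4/Pdk2 without sham 3 (-0.10). The cause of these changes was not tested.

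DESeq2, its size factors, limma-voom, upper-quartile scaling, the 1 CPM filter and leaving out mitochondrial and ribosomal RNA genes changed no direction or call in the 30 results of the 10 genes. Having 3 libraries a group, a sham group of unstated time and 27 to 104 Ucp3 counts at 1 day limits the precision of single folds.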

Other observations

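The receptor and coactivator families have further members that moved apart from each other, named here after their values were seen. Pprc1, which encodes a coactivator related to PGC-1α, had 7.86, 6.62 and 7.36 CPM in libraries A, B and C at 14 days, 25.0, 23.3 and 17.6 CPM in mice 4, 5 and 6 at 1 day, and 6.99, 7.65 and 8.69 CPM in sham mice 1, 2 and 3. The 1-day libraries were above all others, the opposite of Ppargc1a. Pprc1 rose at 1 day against sham (log2 fold 1.51, SE 0.14, adjusted p = 2.42e-05) and was lower at 14 days than at 1 day (-1.60, SE 0.14, adjusted p = 1.48e-05) in every setting tried.

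Esrrb, of the ERR family, had 10.01, 9.29 and 8.95 CPM in libraries A, B and C, 4.57, 4.45 and 8.38 CPM in mice 4, 5 and 6, and 13.4, 12.03 and 12.7 CPM in sham mice 1, 2 and 3. The 3 groups did not overlap. Esrrb fell at 1 day against sham (log2 fold -1.15, SE 0.20, adjusted p = 8.32e-04), which was not called when scaled to cardiomyocyte markers. It was higher at 14 days than at 1 day (0.72, SE 0.20, adjusted p = 0.0116), a call lost without mouse 4 and under total counts alone.

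Pparg, best known from fat tissue, had 5.44 to 6.86 CPM at 14 days, 4.32 to 4.93 CPM at 1 day and 4.79 to 5.24 CPM in sham. Its log2 fold at 1 day against sham was -0.10 (SE 0.13, adjusted p = 0.549), and the call at 14 days against 1 day (0.38, SE 0.13, adjusted p = 0.0256) was lost without mouse 4, library A or library B, without a low-count filter, with total counts alone and when scaled to cardiomyocyte markers. Perm1, a muscle regulator induced by PGC-1α and ERRs, had 125, 95.1 and 89.2 CPM in libraries A, B and C, 28.9, 25.6 and 68.2 CPM in mice 4, 5 and 6, and 144, 142 and 125 CPM in sham mice 1, 2 and 3. Perm1 fell at 1 day against sham (log2 fold -1.75, SE 0.34, adjusted p = 0.00210) and was higher at 14 days than at 1 day (1.34, SE 0.33, adjusted p = 0.00848). At 14 days against sham the log2 folds were -0.43 for Esrrb and -0.41 for Perm1, and neither was called unless mouse 6 was left out or the 1-day group was kept out of the fit.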
